A study of Homo sapiens with 4 samples.

Results

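The genes described here build the DNA replication machinery, from the proteins that mark replication origins to the enzymes that copy DNA at the fork. They were chosen by name as 49 gene symbols, which were matched exactly to the gene names of the deposited tables. All 49 were found among the 54628 genes of the tables. The RNA came from Panc1, an established human cell line of pancreatic ductal carcinoma, and knockdown of the chromatin protein HMGB2 is one of the conditions the series lists. Poly(A) RNA was sequenced in 4 libraries. Of these, 2 are labelled HMGB2 siRNA (small interfering RNA directed at this gene) and 2 scramble siRNA, a control without an intended target. The duration and dose of the treatment and the sequence of the siRNA are not given in the sources used here. Whether the replicates were grown as separate cultures is not stated in the labels. The p-values therefore cover the spread among these 4 libraries only, and that spread may be technical.

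Replication starts in G1 phase, when the origin recognition complex (ORC) with CDC6 and CDT1 loads rings of MCM2 to MCM7 onto origins, a step called licensing. Geminin (GMNN) blocks CDT1 once S phase has begun, and the kinase CDC7 with its activator DBF4 then helps to turn the ring into an active helicase with CDC45 and the GINS complex. Polymerase alpha with primase lays down primers, polymerase epsilon mainly extends the leading strand and polymerase delta the lagging strand. The sliding clamp PCNA, loaded by replication factor C (RFC), holds polymerases on DNA, and replication protein A (RPA) covers single-stranded DNA. Many of these genes are known targets of E2F transcription factors and are transcribed mainly around the transition into S phase.

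HMGB2 itself (chromosome 4, 173331376 to 173334358, GRCh38) went against the labels. In the libraries labelled HMGB2 siRNA it had 4021 and 2746 counts, against 346 and 319 counts in those labelled scramble, a log2 fold change of 3.07 ± 0.08 (SE; adjusted p = 1.54e-33). The count columns of all 4 tables are also headed with the other treatment. Groups keep their label names here. Each direction compares the libraries labelled HMGB2 siRNA, called HMGB2-high for their 4021 and 2746 counts, with those labelled scramble, called HMGB2-low for their 346 and 319 counts. Total gene counts were 31852391 and 20976561 in the libraries labelled HMGB2 siRNA, against 21874647 and 20340695 in those labelled scramble. All 6 epithelial markers examined, among them KRT8, KRT18 and EPCAM, were above 1 CPM (counts scaled to library size with TMM factors) in every library, and their sum was 4552 and 4606 CPM in the libraries labelled HMGB2 siRNA, against 4193 and 3271 CPM in those labelled scramble. Of the ductal markers, SOX9 was expressed and CFTR had at most 1 count. CDKN2A, which Panc1 is known to have lost, had 0 counts in every library. Summed endothelial and acinar markers stayed at or below 0.192 CPM, and the fibroblast genes DCN, LUM, COL1A2 and PDGFRA had at most 3 counts. COL1A1 (at least 55.2 CPM) and CD68 (at least 98.7 CPM) were expressed in every library, while PTPRC had at most 1 count and CD3E none. The part of the epithelial difference in the results below was not tested.

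Replication genes were mostly higher in the HMGB2-high libraries labelled HMGB2 siRNA. Of the 49 genes, all of which had enough counts to be tested, 35 rose, 2 fell and 12 did not pass (adjusted p under 0.05 over all genes, by the quasi-likelihood test of edgeR). Over all 15161 genes tested, 16.7% were called higher and 14.1% lower. The median log2 fold change of the 49 stood at 0.31, beside -0.01 for all genes tested, and 45 of the 49 had a value above 0. The changes were small: GINS4 had the highest value at 1.86-fold, and 5 genes were called higher at over 1.5-fold, as were 4.60% of all genes tested. Those that fell were MCM6, a subunit of the helicase ring, and GMNN, the inhibitor of CDT1. RNA of a whole culture was measured, so more cells in a given phase of the cell cycle and more RNA per cell cannot be told apart.

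**Figure D1:**
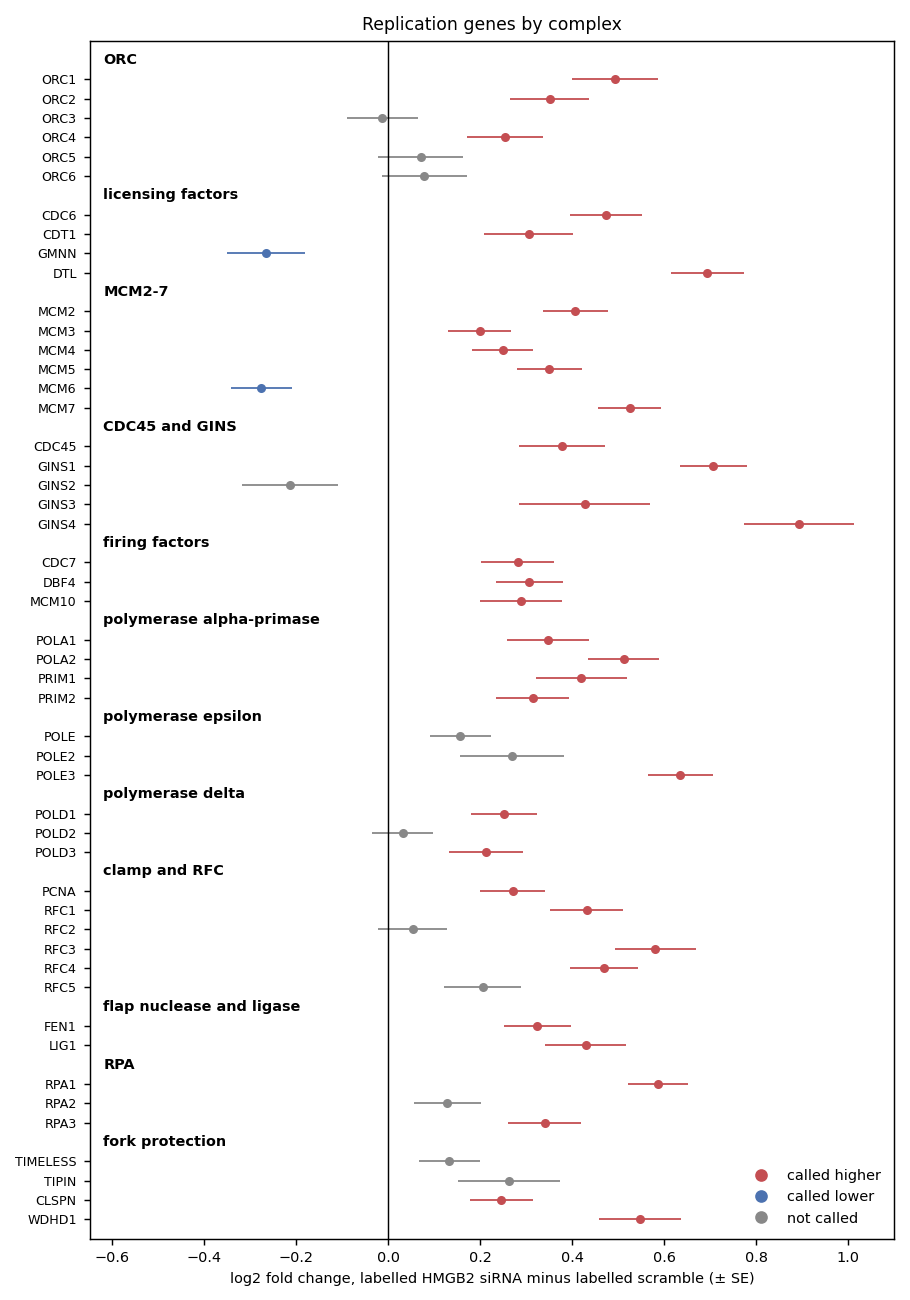
Log2 fold change of each of the 49 replication genes (x axis; libraries labelled HMGB2 siRNA minus libraries labelled scramble), grouped by complex, with points for estimates and bars for the SE of the edgeR fit. Red points were called higher (35), blue lower (2) and grey points were not called (12); MCM6 and GMNN lie below 0 within groups that are otherwise above it.

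Both HMGB2-high libraries labelled HMGB2 siRNA lay above both labelled scramble in CPM for 41 of the 49 genes, below both for 2 and overlapped for 6. Over all genes tested, 32.0% lay above and 31.6% below. The libraries labelled scramble also differed from each other. Replicate 1 labelled scramble was above replicate 2 for 40 of the 49 genes, with a median log2 difference of 0.15, and replicate 2 labelled scramble was the lowest of the 4 libraries for 38. Over all genes tested the corresponding figures were 49.7% and 28.1%, and the median difference was -0.00. Counts of calls with a library left out follow for the 49 genes only, without the share over all genes tested in the same fit. Without replicate 1 labelled scramble 40 genes were called higher and 1 lower, with a median of 0.40. Without replicate 2 of that label 30 were called higher and 3 lower, with a median of 0.25. The count of genes called higher was 23 without replicate 1 labelled HMGB2 siRNA and 20 without replicate 2 of that label, with 2 and 0 called lower.

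**Figure D2:**
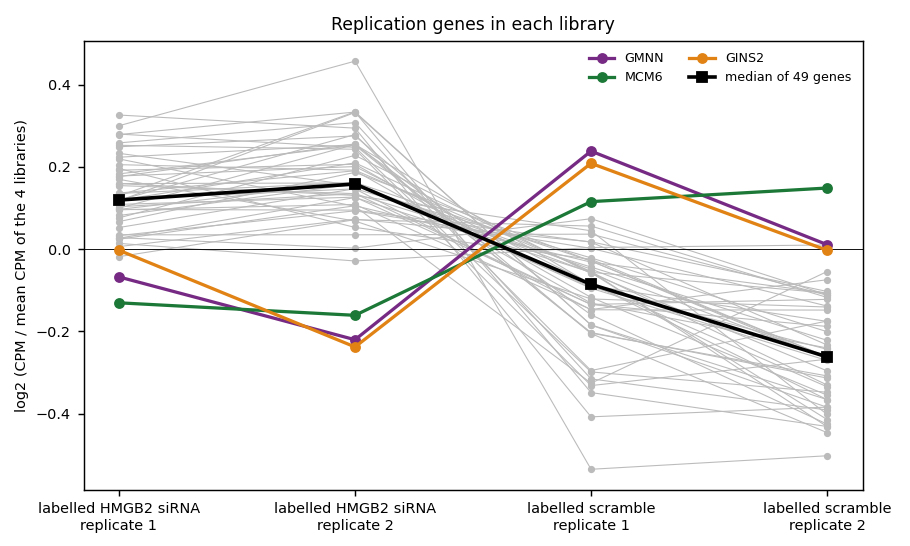
CPM of each of the 49 replication genes in each library, as log2 of its ratio to the gene's mean over the 4 libraries; grey lines join the values of a gene, the black line joins the medians, and MCM6, GMNN and GINS2 are coloured. The median falls between replicate 1 and replicate 2 labelled scramble, while MCM6 is higher in both libraries labelled scramble than in both labelled HMGB2 siRNA.

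Calls within the origin recognition complex were mixed, and differences between its subunits were not tested. ORC1, ORC2 and ORC4 rose in the HMGB2-high libraries labelled HMGB2 siRNA, while ORC3, ORC5 and ORC6 did not pass. ORC1, the subunit whose level follows the cell cycle most closely, had 33.5 and 38.8 CPM in the libraries labelled HMGB2 siRNA, against 27.2 and 23.9 CPM in those labelled scramble. This is a log2 fold change of 0.49 ± 0.09 (SE; adjusted p = 3.91e-05), with no overlap of the groups. ORC2 had 48.5 and 44.8 CPM in the libraries labelled HMGB2 siRNA, against 33.2 and 40.1 CPM in those labelled scramble (0.35 ± 0.09, adjusted p = 0.0012). ORC4 was 1.19-fold higher. ORC3, ORC5 and ORC6, the last of which binds the core of the complex least tightly, had log2 fold changes of -0.01, 0.07 and 0.08 and overlapping groups. The ORC2 call was lost without replicate 1 labelled HMGB2 siRNA (0.29, adjusted p = 0.0988), and without replicate 1 labelled scramble its value was 0.23. The ORC4 call (0.25) was lost without replicate 1 (0.20) or replicate 2 (0.31) labelled HMGB2 siRNA, with DESeq2 and with upper-quartile or total-count scaling.

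Factors that control loading of the helicase moved in opposite directions. CDC6, DTL and CDT1 rose in the HMGB2-high libraries labelled HMGB2 siRNA and GMNN fell. DTL, the substrate receptor of the ubiquitin ligase that destroys CDT1 in S phase, had 55.4 and 57.5 CPM in the libraries labelled HMGB2 siRNA, against 35.9 and 33.9 CPM in those labelled scramble. Its log2 fold change was 0.69 ± 0.08 (SE; adjusted p = 8.49e-10). CDC6, the ATPase that loads the ring together with ORC, had 57.7 and 60.6 CPM in the libraries labelled HMGB2 siRNA, against 44.2 and 40.9 CPM in those labelled scramble (0.47 ± 0.08, adjusted p = 3.31e-06). For both genes the groups were well apart. GMNN had 40.5 and 36.4 CPM in the libraries labelled HMGB2 siRNA, against 50.01 and 42.7 CPM in those labelled scramble, a log2 fold change of -0.27 ± 0.08 (SE; adjusted p = 0.0126). CDT1 had 36.4 and 35.7 CPM in the libraries labelled HMGB2 siRNA, against 33.6 and 24.7 CPM in those labelled scramble (0.30 ± 0.10, adjusted p = 0.0132), and replicate 1 labelled scramble lay close to both HMGB2 siRNA values. The GMNN call was lost with DESeq2, without replicate 2 labelled HMGB2 siRNA (-0.19) and without replicate 1 labelled scramble (-0.14). The CDT1 call was lost with DESeq2, with total-count scaling and without replicate 1 (0.29) or 2 (0.32) labelled HMGB2 siRNA or replicate 2 labelled scramble (0.10), and without replicate 1 labelled scramble its value was 0.55.

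Of the subunits of the helicase ring, MCM2, MCM3, MCM4, MCM5 and MCM7 rose in the HMGB2-high libraries labelled HMGB2 siRNA and MCM6 fell. MCM7 had 480 and 490 CPM in the libraries labelled HMGB2 siRNA, against 368 and 306 CPM in those labelled scramble, a log2 fold change of 0.52 ± 0.07 (SE; adjusted p = 2.74e-08). MCM2, which is phosphorylated by CDC7, had 186 and 189 CPM in the libraries labelled HMGB2 siRNA, against 155 and 128 CPM in those labelled scramble (0.41 ± 0.07, adjusted p = 8.27e-06). The 2 libraries labelled HMGB2 siRNA were close to each other for both genes, and the spread lay between the libraries labelled scramble. MCM6 had 106 and 103 CPM in the libraries labelled HMGB2 siRNA, against 125 and 128 CPM in those labelled scramble, a log2 fold change of -0.28 ± 0.07 (SE; adjusted p = 0.000933). In contrast to the other subunits, MCM6 had its lowest values in both libraries labelled HMGB2 siRNA. MCM5, MCM4 and MCM3 were 1.27-fold, 1.19-fold and 1.15-fold higher. The MCM6 call was lost without replicate 2 labelled HMGB2 siRNA (-0.26, adjusted p = 0.0796), and the MCM4 call (0.25) without replicate 1 (0.27) or 2 (0.24) of that label. The MCM3 call (0.20) was lost with DESeq2, with upper-quartile or total-count scaling and without replicate 1 (0.20) or 2 (0.21) labelled HMGB2 siRNA or replicate 2 labelled scramble (0.08), and its value was 0.34 without replicate 1 labelled scramble. Without replicate 2 labelled scramble MCM4 was at 0.16 and MCM5 at 0.22.

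Levels were compared between genes as TPM, in which counts are divided by exon length and scaled to the same total in every library. The length counts every annotated exon base of a gene, whether or not it is transcribed in these cells. MCM7 was the most abundant of the 49 genes, with 388 ± 1.70 TPM in the HMGB2-high libraries labelled HMGB2 siRNA and 274 ± 28.6 TPM in those labelled scramble (SD, n = 2 each). MCM4 followed within the ring at 151 ± 0.725 TPM in the libraries labelled HMGB2 siRNA, against 129 ± 7.91 TPM in those labelled scramble. MCM6 was the least abundant subunit, with 67.2 ± 1.73 TPM in the libraries labelled HMGB2 siRNA, against 82.8 ± 3.50 TPM in those labelled scramble. MCM3, MCM2 and MCM5 lay between them, in this order of their means over the 4 libraries. Mean levels over the 4 libraries therefore ranged 4.42-fold within the ring. The ORC subunits were much lower and ranged 2.76-fold, with ORC6 the highest at 38.0 TPM and ORC4 the lowest at 13.8 TPM. The 49 genes together made up 2969 ± 24.0 TPM in the libraries labelled HMGB2 siRNA, against 2437 ± 139 TPM in those labelled scramble (SD, n = 2 each).

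**Figure D3:**
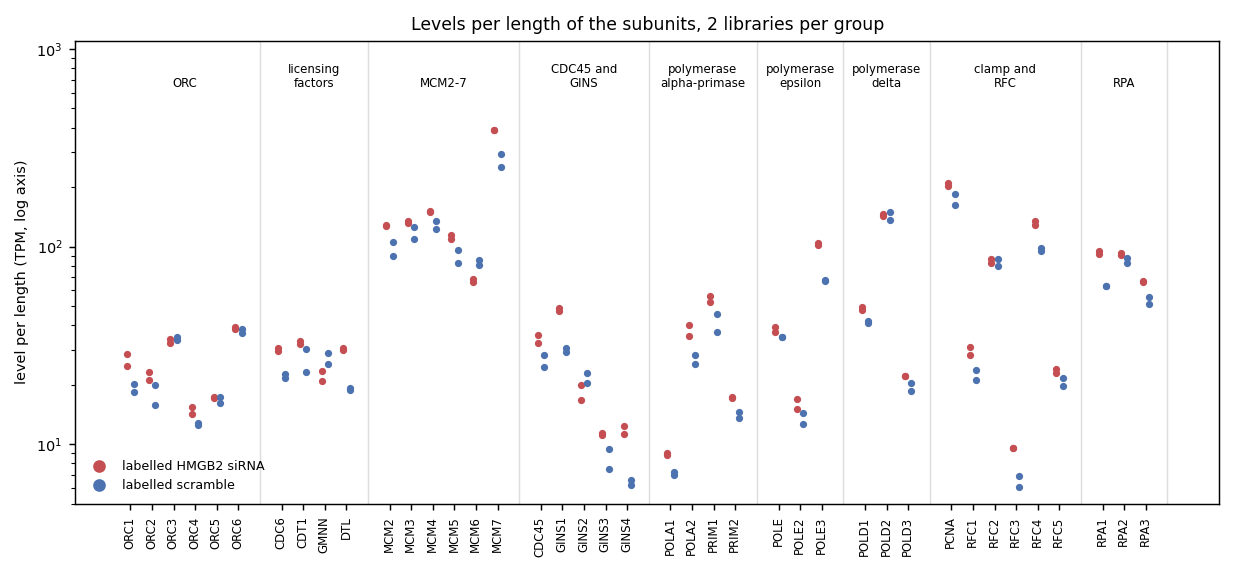
TPM of subunits of 9 complexes or groups in each of the 4 libraries on a log axis, red for the libraries labelled HMGB2 siRNA and blue for those labelled scramble. MCM7 stands above the other subunits of the ring and MCM6 is the lowest of them. RFC3 is the lowest of the clamp loader in TPM, which divides by its 11245 annotated exon bases.

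CDC45 and GINS, which complete the helicase, held the largest changes among the 49 genes. GINS1, GINS4, GINS3 and CDC45 rose in the HMGB2-high libraries labelled HMGB2 siRNA, and GINS2 did not pass. GINS1 had 81.6 and 79.8 CPM in the libraries labelled HMGB2 siRNA, against 49.1 and 49.9 CPM in those labelled scramble (0.71 ± 0.07, SE; adjusted p = 3.82e-11). GINS4 had 17.7 and 19.7 CPM in the libraries labelled HMGB2 siRNA, against 9.90 and 10.1 CPM in those labelled scramble (0.89 ± 0.12, adjusted p = 3.38e-08). Both genes were separated between the groups. GINS2 had 21.5 and 18.3 CPM in the libraries labelled HMGB2 siRNA, against 24.9 and 21.5 CPM in those labelled scramble, so its groups met at 21.5 CPM (-0.21 ± 0.10, adjusted p = 0.119). It was called lower with upper-quartile scaling (-0.26, adjusted p = 0.05) and without replicate 2 labelled scramble (-0.31, adjusted p = 0.0139), while its value was -0.09 without replicate 1 labelled scramble (adjusted p = 0.556) and -0.10 without replicate 2 labelled HMGB2 siRNA (adjusted p = 0.703). CDC45 was 1.30-fold and GINS3 1.34-fold higher. The CDC45 call (0.38) was lost without replicate 2 labelled HMGB2 siRNA (0.31), and that of GINS3 (0.43) with DESeq2, without replicate 1 (0.42) or 2 (0.44) labelled HMGB2 siRNA and without replicate 2 labelled scramble (0.26).

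All 3 genes of origin firing rose. The kinase CDC7 had 48.7 and 49.6 CPM in the HMGB2-high libraries labelled HMGB2 siRNA, against 40.4 and 40.4 CPM in those labelled scramble (0.28 ± 0.08, SE; adjusted p = 0.00479). Its activator DBF4 had 70.6 and 69.6 CPM in the libraries labelled HMGB2 siRNA, against 57.8 and 55.7 CPM in those labelled scramble (0.31 ± 0.07, adjusted p = 0.000887). MCM10, which helps the helicase to start unwinding, was 1.22-fold higher (0.29 ± 0.09). These groups did not overlap, but the CDC7 call was lost without replicate 1 (0.30) or 2 (0.28) labelled HMGB2 siRNA, and the DBF4 call without replicate 1 of that label (0.30, adjusted p = 0.055). The MCM10 call was lost with DESeq2, without replicate 1 (0.31) or 2 (0.28) labelled HMGB2 siRNA and without replicate 2 labelled scramble (0.19).

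All 4 subunits of polymerase alpha-primase rose in the HMGB2-high libraries labelled HMGB2 siRNA. POLA2, the accessory subunit, had 75.7 and 87.2 CPM in the libraries labelled HMGB2 siRNA, against 60.9 and 53.0 CPM in those labelled scramble (0.51 ± 0.08, SE; adjusted p = 5.97e-07). PRIM1, the catalytic primase subunit, had 32.8 and 31.04 CPM in the libraries labelled HMGB2 siRNA, against 26.8 and 20.9 CPM in those labelled scramble (0.42 ± 0.10, adjusted p = 0.000744), and its value was 0.26 without replicate 2 labelled scramble. The catalytic subunit POLA1 was 1.27-fold and the large primase subunit PRIM2 1.24-fold higher. Without replicate 2 labelled HMGB2 siRNA both missed the threshold (POLA1 0.33, adjusted p = 0.0643, and PRIM2 0.31, adjusted p = 0.0545).

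Calls among subunits of the leading- and lagging-strand polymerases were mixed, and differences between these subunits were not tested. POLE3, a histone-fold subunit of polymerase epsilon, had 94.8 and 98.0 CPM in the HMGB2-high libraries labelled HMGB2 siRNA, against 63.7 and 60.4 CPM in those labelled scramble (0.63 ± 0.07, SE; adjusted p = 3.25e-10). The catalytic subunit POLE had 145 and 156 CPM in the libraries labelled HMGB2 siRNA, against 137 and 132 CPM in those labelled scramble (0.16 ± 0.07, adjusted p = 0.0656). POLE2 had 19.1 and 17.2 CPM in the libraries labelled HMGB2 siRNA, against 16.4 and 13.9 CPM in those labelled scramble (0.27 ± 0.11, adjusted p = 0.0635). Neither POLE nor POLE2 passed, and their groups did not overlap. Both passed without replicate 1 labelled scramble (0.19 and 0.40), whereas without replicate 2 labelled scramble their values were 0.13 and 0.16 (adjusted p = 0.102 and 0.325). In polymerase delta the catalytic subunit POLD1 had 77.3 and 81.5 CPM in the libraries labelled HMGB2 siRNA, against 68.6 and 64.7 CPM in those labelled scramble (0.25 ± 0.07, adjusted p = 0.00548). POLD3 had 44.0 and 44.4 CPM in the libraries labelled HMGB2 siRNA, against 37.2 and 39.1 CPM in those labelled scramble (0.21 ± 0.08, adjusted p = 0.0411). POLD2, the most abundant of the polymerase subunits at 144 TPM, had 182 and 179 CPM in the libraries labelled HMGB2 siRNA, against 188 and 165 CPM in those labelled scramble, which lay on either side. The POLD1 call was lost without replicate 1 (0.29) or 2 (0.22) labelled HMGB2 siRNA. The POLD3 call was lost with DESeq2, without a low-count filter, with the replicate block, with upper-quartile or total-count scaling and without replicate 1 or 2 labelled HMGB2 siRNA or replicate 1 labelled scramble, while its value stayed between 0.16 and 0.25.

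The clamp and 3 subunits of its loader rose in the HMGB2-high libraries labelled HMGB2 siRNA, while RFC2 and RFC5 did not pass. RFC3 had 44.1 and 44.9 CPM in the libraries labelled HMGB2 siRNA, against 32.2 and 27.3 CPM in those labelled scramble (0.58 ± 0.09, SE; adjusted p = 5.2e-07). RFC4 had 72.3 and 76.4 CPM in the libraries labelled HMGB2 siRNA, against 55.5 and 51.7 CPM in those labelled scramble (0.47 ± 0.07, adjusted p = 1.36e-06). RFC1, the large subunit found only in the replicative loader, was 1.35-fold higher (0.43 ± 0.08, adjusted p = 2.12e-05). PCNA had 116 and 122 CPM in the libraries labelled HMGB2 siRNA, against 107 and 90.5 CPM in those labelled scramble (0.27 ± 0.07, adjusted p = 0.00248). RFC2, with a log2 fold change of 0.05 ± 0.07, overlapped between groups, and RFC5 was at 0.20 ± 0.08 (adjusted p = 0.0559). RFC5 was at 0.30 and called without replicate 1 labelled scramble, and at 0.12 without replicate 2 of that label (adjusted p = 0.301). The PCNA call was lost without replicate 2 labelled HMGB2 siRNA (0.24) and without replicate 2 labelled scramble (0.16). Per length PCNA was the second most abundant of the 49 genes, with 206 ± 4.53 TPM in the libraries labelled HMGB2 siRNA, against 173 ± 15.7 TPM in those labelled scramble (SD, n = 2 each). Levels within the clamp loader ranged from RFC3 at 8.03 TPM to RFC4 at 114 TPM. TPM divides by all annotated exon bases, which are 11245 for RFC3 and 1365 for RFC4. Before this division their means over the 4 libraries were 37.1 and 64.0 CPM. How much of the annotated length is transcribed in these cells was not tested.

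Enzymes that finish lagging-strand fragments rose together. The flap nuclease gene FEN1 had 111 and 123 CPM in the HMGB2-high libraries labelled HMGB2 siRNA, against 101 and 85.6 CPM in those labelled scramble (0.32 ± 0.07, SE; adjusted p = 0.000424). The ligase gene LIG1 had 41.6 and 42.1 CPM in the libraries labelled HMGB2 siRNA, against 33.6 and 28.5 CPM in those labelled scramble (0.43 ± 0.09, adjusted p = 0.000116). Neither overlapped between groups, but FEN1 lost its call without replicate 2 labelled HMGB2 siRNA (0.25, adjusted p = 0.0786) and was at 0.21 without replicate 2 labelled scramble. Among RPA genes RPA1, the large subunit, had 213 and 208 CPM in the libraries labelled HMGB2 siRNA, against 143 and 138 CPM in those labelled scramble (0.59 ± 0.06, adjusted p = 2.76e-10). RPA3 had 55.5 and 55.6 CPM in the libraries labelled HMGB2 siRNA, against 46.6 and 41.2 CPM in those labelled scramble (0.34 ± 0.08, adjusted p = 0.000656). RPA2 had 73.0 and 76.1 CPM in the libraries labelled HMGB2 siRNA, against 71.4 and 64.8 CPM in those labelled scramble and did not pass (0.13 ± 0.07, adjusted p = 0.187). It passed without replicate 1 labelled scramble (0.21, adjusted p = 0.0176) and was at 0.06 without replicate 2 of that label (adjusted p = 0.573). Mean levels of the RPA subunits over the 4 libraries lay between 59.9 TPM (RPA3) and 88.2 TPM (RPA2).

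Of the genes that protect the fork, WDHD1 and CLSPN rose, and TIMELESS and TIPIN did not pass. WDHD1, which tethers polymerase alpha to the helicase, had 37.9 and 37.7 CPM in the HMGB2-high libraries labelled HMGB2 siRNA, against 25.3 and 26.4 CPM in those labelled scramble (0.55 ± 0.09, SE; adjusted p = 2.3e-06). CLSPN, the checkpoint mediator claspin, had 88.4 and 89.5 CPM in the libraries labelled HMGB2 siRNA, against 74.7 and 75.4 CPM in those labelled scramble (0.25 ± 0.07, adjusted p = 0.00479), a call lost without replicate 1 (0.26) or 2 (0.24) labelled HMGB2 siRNA. TIMELESS and TIPIN, which form a complex that moves with the fork, had log2 fold changes of 0.13 ± 0.07 and 0.26 ± 0.11 (adjusted p = 0.129 and 0.0689). Their groups did not overlap, and both passed without replicate 1 labelled scramble (0.18 and 0.39). Without replicate 2 of that label their values were 0.10 and 0.15 (adjusted p = 0.274 and 0.355).

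Ratios of levels within a library do not depend on how libraries are scaled. The 4 described here were chosen after their values were seen. MCM6 stood at 0.377 and 0.361 of the mean of the other 5 ring subunits in the HMGB2-high libraries labelled HMGB2 siRNA, against 0.532 and 0.647 in those labelled scramble. The ratio of CDT1 to its inhibitor GMNN was 1.41 and 1.54 in the libraries labelled HMGB2 siRNA, against 1.05 and 0.906 in those labelled scramble. GINS1 was 2.46 and 2.83 times GINS2 in the libraries labelled HMGB2 siRNA, against 1.28 and 1.502 times GINS2 in those labelled scramble. GINS4 was 0.564 and 0.740 of GINS2 in the libraries labelled HMGB2 siRNA, against 0.273 and 0.324 of it in those labelled scramble. The groups did not overlap in any of these 4 ratios. With 2 libraries against 2 the exact permutation test, two-sided, gave p = 0.333 for each, the smallest value this design allows. Because the ratios were chosen after their values were seen, neither the separation nor this p-value counts as support. Ratios of POLE3 to POLE and of RPA1 to RPA2 were computed as well, and their groups did not overlap either.

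**Figure D4:**
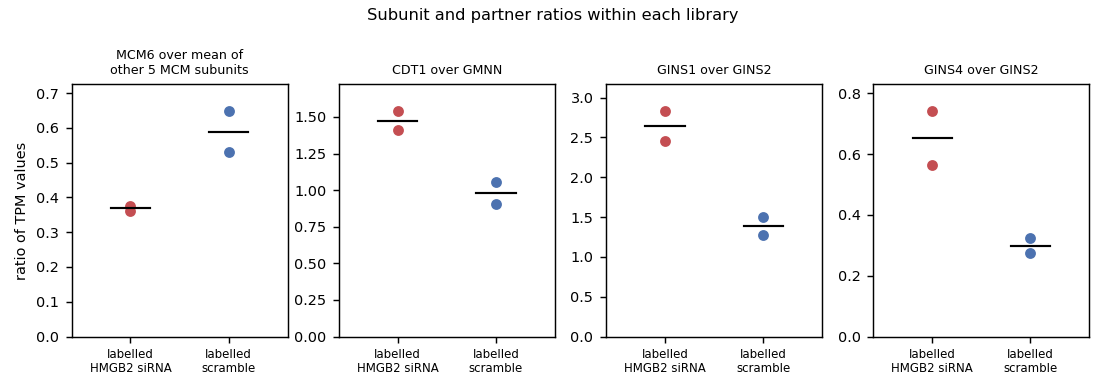
Ratios of TPM values within each library (y axis, starting at 0) for 4 pairs of replication genes, with a point for each library and a line at the mean of the 2 libraries. MCM6 relative to the other ring subunits is lower, and the ratios of CDT1 to GMNN and of GINS1 and GINS4 to GINS2 are higher, in the libraries labelled HMGB2 siRNA.

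Promoters of these genes were examined because most of the genes rose while a few close partners had values below 0. RefSeq promoter windows (GRCh38.p14, 250 bases before to 50 after an annotated start) were found for 43 of the 49 genes. MCM4, MCM5, GINS4, POLD3, RPA2 and RPA3 had no entry. The windows were searched on both strands for TTTCCCGC and TTTGGCGC, words of the type bound by E2F factors, and the 2 words found in TIPIN overlap each other. At least 1 of these words was present in 20 of the 43 genes (46.5%), against 4.52% of 11136 tested genes with a window and 2.27% of all 35116 windows. Of the 20 genes with a word, 13 were called higher and 2 lower in the HMGB2-high libraries labelled HMGB2 siRNA, with a median log2 fold change of 0.28. Of the 23 without, 17 were called higher and 0 lower, with a median of 0.32. Over all 15161 genes tested, 16.7% were called higher and 14.1% lower. The share called among the 503 tested genes with a word was not examined. The 4 genes with values below 0, MCM6, GMNN, GINS2 and ORC3, were all among the 20 with a word. Of these, only MCM6 and GMNN were called lower. GINS2 did not pass, and ORC3 (-0.01 ± 0.08, SE) turned above 0 in 2 alternatives. A link between a word and the direction of change was not tested. A match describes these letters only and not a bound site.

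The windows of partners with values on opposite sides of 0 are shown 5′ to 3′ on the strand of each gene, with the words above in capitals (reading GCGGGAAA or GCGCCAAA where the word lies on the other strand). They are MCM6 (chr2:135876394-135876693, minus strand) and MCM7 (chr7:100101348-100101647, minus strand), GINS2 (chr16:85688905-85689204, minus strand) and GINS1 (chr20:25407423-25407722, plus strand), and GMNN (chr6:24775163-24775462, plus strand) and CDT1 (chr16:88803539-88803838, plus strand). MCM7 has 3 windows and GMNN 2 in the table, and the one with a word is given.
MCM6: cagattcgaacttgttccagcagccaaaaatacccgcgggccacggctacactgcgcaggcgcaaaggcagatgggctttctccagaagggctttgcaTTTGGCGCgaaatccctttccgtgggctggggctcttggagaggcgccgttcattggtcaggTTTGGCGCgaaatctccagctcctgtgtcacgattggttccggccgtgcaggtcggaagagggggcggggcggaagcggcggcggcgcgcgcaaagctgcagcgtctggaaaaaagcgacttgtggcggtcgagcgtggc
MCM7: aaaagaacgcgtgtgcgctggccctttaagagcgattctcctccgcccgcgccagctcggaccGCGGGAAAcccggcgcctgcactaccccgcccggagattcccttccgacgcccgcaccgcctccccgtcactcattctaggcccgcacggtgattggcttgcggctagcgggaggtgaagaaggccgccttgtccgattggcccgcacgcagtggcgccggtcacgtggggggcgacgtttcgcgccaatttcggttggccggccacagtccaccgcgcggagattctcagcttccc
GINS2: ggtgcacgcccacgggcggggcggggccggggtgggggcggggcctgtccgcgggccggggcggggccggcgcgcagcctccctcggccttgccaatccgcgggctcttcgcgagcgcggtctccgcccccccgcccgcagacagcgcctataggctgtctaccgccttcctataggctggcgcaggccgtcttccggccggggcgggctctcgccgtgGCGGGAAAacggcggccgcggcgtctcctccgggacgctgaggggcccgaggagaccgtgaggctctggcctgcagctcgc
GINS1: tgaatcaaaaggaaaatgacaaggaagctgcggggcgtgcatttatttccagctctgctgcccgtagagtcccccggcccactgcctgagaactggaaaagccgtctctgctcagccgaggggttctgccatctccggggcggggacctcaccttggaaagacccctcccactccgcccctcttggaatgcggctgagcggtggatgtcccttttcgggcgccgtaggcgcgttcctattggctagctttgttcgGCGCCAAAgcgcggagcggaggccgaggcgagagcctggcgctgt
GMNN: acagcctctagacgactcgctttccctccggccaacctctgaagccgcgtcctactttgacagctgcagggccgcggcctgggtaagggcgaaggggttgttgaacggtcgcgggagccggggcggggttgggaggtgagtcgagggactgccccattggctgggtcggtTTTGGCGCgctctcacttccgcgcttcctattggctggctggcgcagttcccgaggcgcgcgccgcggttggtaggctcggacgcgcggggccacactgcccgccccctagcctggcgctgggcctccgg
CDT1: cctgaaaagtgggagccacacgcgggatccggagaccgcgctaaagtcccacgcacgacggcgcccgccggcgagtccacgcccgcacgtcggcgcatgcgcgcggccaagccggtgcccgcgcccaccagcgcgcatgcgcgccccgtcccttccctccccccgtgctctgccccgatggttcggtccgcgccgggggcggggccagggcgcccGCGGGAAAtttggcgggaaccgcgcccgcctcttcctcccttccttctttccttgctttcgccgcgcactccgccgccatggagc
In MCM6 the words begin 152 and 90 bases before the start, in GMNN 80, in CDT1 35, in GINS2 31 and in MCM7 187 bases before it, and in GINS1 the word begins at base 6 of the transcript. These 3 pairs were picked by hand and only windows with a word are shown. A word in both partners therefore follows from the choice. ORC3 also held a word, while the other ORC subunits and MCM2 held neither word. GINS2 itself did not pass the test.

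Among 50 other genes of replication, 48 had enough counts to be tested, of which 25 rose, 3 fell and 20 did not pass in the HMGB2-high libraries labelled HMGB2 siRNA. Among all genes tested, 16.7% were called higher and 14.1% lower. The median log2 fold change of the 48 was 0.21. Counts with a library left out stand here without the share over all genes tested in the same fit. Without replicate 1 labelled HMGB2 siRNA 13 were called higher, and without replicate 2 of that label 1 was called lower. ASF1B, a histone chaperone at the fork, had 50.3 and 48.3 CPM in the libraries labelled HMGB2 siRNA, against 32.3 and 27.6 CPM in those labelled scramble (0.72 ± 0.09, SE; adjusted p = 2.12e-09). CUL4A, the scaffold of the ligase in which DTL works, had 93.6 and 98.5 CPM in the libraries labelled HMGB2 siRNA, against 62.4 and 63.6 CPM in those labelled scramble (0.61 ± 0.07, adjusted p = 9.91e-10). DSCC1, part of an alternative clamp loader, was 1.73-fold higher, MCM8, a helicase of recombination repair, 1.48-fold, SKP2, which targets CDT1 for destruction, 1.46-fold, and the PCNA-binding factor PCLAF 1.45-fold. TOP1, which relaxes DNA ahead of the fork, had 154 and 160 CPM in the libraries labelled HMGB2 siRNA, against 185 and 207 CPM in those labelled scramble (-0.32 ± 0.07, adjusted p = 0.00015). MCM9, the partner of MCM8, fell to 19.9 and 17.1 CPM in the libraries labelled HMGB2 siRNA, against 23.2 and 26.0 CPM in those labelled scramble (-0.40 ± 0.10, adjusted p = 0.00227). POLD4, the smallest subunit of polymerase delta, had 57.5 and 54.4 CPM in the libraries labelled HMGB2 siRNA, against 66.8 and 65.04 CPM in those labelled scramble (-0.23 ± 0.07, adjusted p = 0.0116). The calls of MCM9 (-0.30) and POLD4 (-0.19) were lost without replicate 2 labelled HMGB2 siRNA, and that of POLD4 also without replicate 1 of that label (-0.28). CHTF8 and ATRIP, which share 100% and 83.3% of their exon bases with another gene on the same strand, had 0 and at most 7 counts and were not tested.

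Exon bases of 12 of the 49 genes overlap a gene of the other strand. The strand setting of the counting is not given in the sources used here. The share was above 5% for MCM2 (31.4%), PCNA (26.7%), RFC5 (13.7%), TIPIN (8.71%), ORC4 (6.12%) and ORC2 (5.05%). The partners of MCM2, PCNA and ORC2 had 41, 0 and 19 counts over all libraries. Those of RFC5 (WSB2), TIPIN (MAP2K1) and ORC4 (ACVR2A) had 20958, 6717 and 675 counts. With the strand setting unknown, these counts cannot show how much of the partners is expressed across the shared bases. Of 18 entries named as pseudogene copies of these genes, 3 had any count, and none had more than 10 counts in a library.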

How the data were processed

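Read counts per gene were deposited by the authors as 1 table per library, unnormalized and summed over the exons listed in each row, per the file headers. STAR 2.7.31, SAMtools 1.9, featureCounts of Subread 1.6.3 and DESeq2 are named with the build GRCh38, without their settings, per the submitters' processing notes. The treatment label of the sample under which a table was deposited set its group. The count column of every table is headed with the opposite treatment.

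Counts were tested by quasi-likelihood (glmQLFTest of edgeR 4.0.16, R 4.3.3) after TMM scaling, with the group as the only term. Genes were kept by filterByExpr at its defaults, a count of 10 and a total of 15. P-values were Benjamini-Hochberg adjusted over 15161 genes and called under 0.05. The SE is the absolute log2 fold change divided by the square root of the F statistic. On simulated counts of 14937 genes for this comparison, 44% of 1.25-fold, 82% of 1.5-fold and 100% of 4-fold changes were recovered, with 10 false calls. The simulation drew genes independently with the same dispersion for all. It therefore does not cover gene-specific spread or differences between libraries that genes share. TPM used exon lengths on the primary chromosomes. A gene without reads could have had up to 3 counts, or 0.0942 to 0.148 CPM, which covers counting error only.

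The genes, lists, tests and named examples were chosen with earlier results of these data known. Values in every library are given for the genes with the 2 smallest p in each complex and for those called lower. They are also given for CDT1, GINS2, POLE, POLD2, PCNA and RPA2, which this rule does not cover. Among other replication genes the named ones are the called genes with the smallest p at a mean of at least 5 CPM, up to 6 in each direction, of which 3 were lower. CHTF8, ATRIP and POLE4 are named outside this rule. Alternatives comprised leaving out each library, testing against a 1.5-fold change (glmTreat), a replicate block, voom in limma 3.58.1, DESeq2 1.42.0, other scalings (total count, upper quartile, RLE) and other filters (none, or a mean of at least 1 CPM). Python 3.11.15, pandas 2.3.3, SciPy 1.17.1 and matplotlib 3.10.9 were used. The result of 1 marker gene is not reported here.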

Additional observations from a re-analysis of the deposited data

How the results depend on the processing

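The direction of HMGB2 and its call held under every alternative run. Shares called over all genes tested are given for the main fit only. A changed count under another setting therefore stands without the matching share. A test against a 1.5-fold change (edgeR glmTreat) called 0 of the 49 replication genes in either direction, with 3 higher and 0 lower at an unadjusted p under 0.05, and 0 of the other replication genes in either direction, with 2 and 0 at an unadjusted p under 0.05. DESeq2 called 29 of the 49 higher and 1 lower. Leaving out a library in turn gave 20 to 40 genes higher, 0 to 3 lower and a median of 0.25 to 0.40 (0.40 without replicate 1 labelled scramble). At the count of 0 lower, without replicate 2 labelled HMGB2 siRNA, edgeR had 1 lower gene at an unadjusted p under 0.05. For the other replication genes leaving out a library gave 13 to 28 higher and 1 to 3 lower. Of the 35 genes called higher, 18 kept the call in all 12 alternatives other than the 1.5-fold test. POLD2 turned to -0.0198 with upper-quartile scaling and to -0.0157 with total-count scaling, and lay between -0.0559 and 0.134 when a library was left out. RFC2 lay between -0.0300 and 0.148 when a library was left out, below 0 without replicate 2 labelled scramble. ORC3 turned to 0.00544 without a low-count filter and lay between -0.0334 and 0.0130 when a library was left out. None of these 3 genes was called. With upper-quartile scaling 42.0% of all calls were higher, and with total counts 43.3%, against 54.3% with TMM, and the median over all genes shifted by -0.05 with each. With lengths from the deposited tables the 49 genes summed to 3029 TPM in the libraries labelled HMGB2 siRNA, against 2969 TPM with lengths on the primary chromosomes. The lengths of the 49 genes are the same in both, so this shift comes from the lengths of other genes in the total. The replicate numbers did not pair libraries (correlation of deviations -0.01), and with the replicate block 34 of the 49 were higher and 2 lower. The causes of the other shifts were not tested.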
